A study of Homo sapiens with 12 samples.

Results

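The genes examined were G3BP1 and 9 of its partners in stress granules: G3BP2, CAPRIN1, USP10, TIA1, TIAL1, ATXN2, ATXN2L, UBAP2L and FMR1. They were taken by name from the count table through their Ensembl gene identifiers, so that 10 of the 60669 identifiers in the table were followed, and all 10 were among the 18720 genes that passed the expression filter. RNA-seq had been carried out on 6 established human cell lines, which the study describes as ovarian cancer lines. The lines were treated for 6 h with 8 µM quinacrine (QC), an antimalarial drug, or with vehicle alone, with 1 library for each line and treatment. The chemosensitive lines were HeyA8, SKOV3 and OV2008, and each had a resistant isogenic partner: HeyA8_MDR, which the study describes as carboplatin resistant, SKOV3_TR, which is taxol resistant, and OV2008_C13, which is cisplatin resistant. The question asked here was whether G3BP1 mRNA moved with the mRNAs of its partners when QC was given. Replication was across the 3 lines of each group and not within a line, so the p-values below rest on the spread between lines. The fits for sensitive and for resistant lines share a single estimate of that spread from all 12 libraries. The fit over 6 lines counts both lines of a family as separate, although they are isogenic. In vehicle the spread is that of the differences between resistant line and parent among 3 families. Each resistant partner is a single line, and a difference between partners cannot be told apart from other differences that arose while the line was made.

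Stress granules are cytoplasmic assemblies of stalled translation initiation complexes, mRNA and RNA-binding proteins that form when initiation is blocked, most often after phosphorylation of eIF2alpha. G3BP1 and its paralogue G3BP2 are the scaffold around which granules condense; CAPRIN1 binds G3BP and favours condensation, and the deubiquitinase USP10 competes for the same surface and opposes it. Granules are made largely from proteins that already exist, so mRNA levels describe the supply of the parts and not the number of granules, which was not measured in these libraries.

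Libraries held between 17782556 and 30585059 counts on genes, with a median of 22289428. Of 10 markers of ovarian epithelial tumours, 5 (PAX8, WT1, KRT7, KRT8 and KRT18) reached 1 CPM (counts scaled to library size; CPM of the members also carry TMM factors) in all 12 libraries, and the 3 leukocyte markers stayed below 1 CPM in all of them. TP63 and KRT14, markers of squamous epithelium, reached 1 CPM in the 4 libraries of OV2008 and OV2008_C13 and in no others, and SOX17, from the ovarian list, reached it in the 8 libraries of the other lines only. The other squamous markers, KRT5 and KRT6A, reached it in 6 libraries, those of SKOV3_TR included. Of the endothelial markers CDH5 reached it in 8 libraries and VWF in 6. Of the fibroblast markers COL1A1 reached it in 10 and COL1A2 in 2, while DCN and LUM did not. EMX2 was below 1 CPM everywhere. The HeyA8 QC library stood apart: genes that separated HeyA8 from HeyA8_MDR by 8-fold or more in vehicle, with at least 10 CPM in the higher line, had shifted toward the HeyA8_MDR level, by a median of 68.2% of the log2 gap for the 32 that HeyA8_MDR expressed more highly and 22.9% for the 75 that it expressed less. The same medians in the remaining QC libraries were between -2.19% and 15.9%. The 15.9% was that of HeyA8_MDR QC toward the HeyA8 level, for the 75 genes higher in HeyA8. The next highest was 7.83%, in OV2008. Fitted values of the members over the lines are therefore given below without HeyA8, and without both HeyA8 lines. Those of the named list genes are given without both HeyA8 lines.

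Promoter sequence is shown for G3BP1, for UBAP2L, whose changes across lines were the most like those of G3BP1 under TMM scaling, and for FMR1, which showed the largest fitted change of the 10 genes. The sequences are the 250 bases before the start of the gene, from RefSeq on GRCh38.p14, written 5′ to 3′ on the gene's own strand. Of the 10 genes, 9 had an entry, and ATXN2 did not. Capitals mark matches on either strand to any of 9 motifs: CCAAT (the CCAAT box), CACGTG (the E-box), GGGCGG (the GC box), TGACGTCA (the cAMP response element), the NRF1 motif, CCGGAAG (the ETS core), TATAAA (the TATA box), TGATGCAA (the ATF4-CHOP element) and the heat shock element. No matches to different motifs overlapped in the 3 windows shown. The windows are chr5:151771704-151771953 for G3BP1, chr1:154220599-154220848 for UBAP2L, the first of 3 starts listed for that gene, and chrX:147911669-147911918 for FMR1, all on the plus strand.
G3BP1: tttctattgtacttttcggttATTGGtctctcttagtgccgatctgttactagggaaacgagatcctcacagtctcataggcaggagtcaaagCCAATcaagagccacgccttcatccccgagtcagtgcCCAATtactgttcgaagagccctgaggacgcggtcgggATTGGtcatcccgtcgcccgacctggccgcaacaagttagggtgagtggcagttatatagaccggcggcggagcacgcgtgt
UBAP2L: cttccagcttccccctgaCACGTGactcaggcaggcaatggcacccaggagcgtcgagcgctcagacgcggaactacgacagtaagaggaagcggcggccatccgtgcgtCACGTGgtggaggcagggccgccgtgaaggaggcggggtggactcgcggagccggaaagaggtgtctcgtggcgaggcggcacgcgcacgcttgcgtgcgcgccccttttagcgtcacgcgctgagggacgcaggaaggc
FMR1: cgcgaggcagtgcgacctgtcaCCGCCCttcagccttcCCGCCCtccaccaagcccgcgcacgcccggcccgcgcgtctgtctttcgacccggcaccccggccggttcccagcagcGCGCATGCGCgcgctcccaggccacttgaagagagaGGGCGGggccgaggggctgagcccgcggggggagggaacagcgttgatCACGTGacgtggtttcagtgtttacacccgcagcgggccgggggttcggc
The G3BP1 window held 4 CCAAT boxes, 2 in each orientation, and none of the other motifs. At least 4 CCAAT boxes were present in 0.874% of the 35116 windows of the same length, and at least 1 was present in 32.0%. The UBAP2L window held 2 E-boxes, where 0.535% of windows held 2 or more. The FMR1 window held 1 E-box, 1 NRF1 motif and 3 GC boxes, and these motifs were present in 6.34%, 5.07% and 42.6% of windows. Of the 9 members with an entry, G3BP1 was the 1 member with a CCAAT box, 5 members had a GC box, and 0 had the ATF4-CHOP element, the cAMP response element or the heat shock element. These last elements were present in 0.772%, 1.65% and 0.441% of windows, in that order, so their absence is not particular to the members. These are matches of letters, and no binding was measured here.

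Per kilobase of the canonical transcript, CAPRIN1 was the most abundant of the 10 mRNAs in vehicle, at 97.7 ± 17.9 CPM per kilobase (SD, n = 6 lines). UBAP2L followed at 62.5 ± 11.7, ATXN2L at 52.1 ± 11.1, USP10 at 47.8 ± 7.71, G3BP2 at 40.7 ± 5.37 and G3BP1 at 34.1 ± 10.2, and each neighbouring pair from UBAP2L to G3BP1 differed by less than the larger of its SDs. TIAL1 reached 26.5 ± 4.18, and ATXN2, FMR1 and TIA1 formed the lowest group at 15 ± 5.89, 14.1 ± 4.35 and 11.8 ± 5.88. CAPRIN1 ranked first with the length of all exons joined as well, while G3BP1, whose annotated exons sum to 20038 bases, moved from rank 6 to rank 5. The members had between 588 and 16945 counts in a library, so none was limited by low counts.

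G3BP1 mRNA did not move one way with QC. In vehicle the level was 536 CPM in HeyA8, 221 in HeyA8_MDR, 366 in SKOV3, 312 in SKOV3_TR, 317 in OV2008 and 342 in OV2008_C13. After QC it was 446 in HeyA8, 332 in HeyA8_MDR, 281 in SKOV3, 375 in SKOV3_TR, 237 in OV2008 and 245 in OV2008_C13. The level was thus lower with QC in the 3 sensitive lines and in OV2008_C13, and higher in HeyA8_MDR and SKOV3_TR, and the vehicle and QC ranges overlapped. The ratio of QC to vehicle was highest in HeyA8_MDR at 1.5 (95% counting interval 1.44 to 1.57) and lowest in OV2008_C13 at 0.715 (0.693 to 0.738). These intervals are exact and cover counting error in the library pair alone, not the spread between cultures. The gene lies on GRCh37 at chr5:151150606-151192472 on the plus strand, and its exons share 130 bases with ATOX1 on the other strand.

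Over the 6 lines the fitted log2 change of G3BP1 was -0.12 ± 0.154 (SE; adjusted p = 0.753, edgeR quasi-likelihood test with Benjamini-Hochberg adjustment). It was -0.36 ± 0.211 in the 3 sensitive lines (adjusted p = 0.777) and 0.12 ± 0.213 in the 3 resistant lines (adjusted p = 0.942, edgeR). The direct test of that difference gave 0.48 ± 0.299 (adjusted p = 1.0, edgeR), and the sensitive and resistant lines overlapped because OV2008_C13 had the lowest ratio of all. The resistant value turned to -0.13 without HeyA8_MDR and was 0.41 without OV2008_C13. Without OV2008_C13 the difference was 0.779, with an unadjusted p of 0.00961 (adjusted p = 1, edgeR). In that fit 540 of all genes had an unadjusted p under 0.05. The difference was 0.241 without HeyA8_MDR (unadjusted p = 0.456) and 0.299 without both HeyA8 lines (unadjusted p = 0.416, edgeR). The fitted G3BP1 change over the remaining lines was -0.09 without HeyA8 (adjusted p = 0.887), -0.27 without HeyA8_MDR (adjusted p = 0.499) and -0.27 without both (adjusted p = 0.62, edgeR). With RPLP0, the reference gene of the study's qPCR, as the scale it was 0.07 over 6 lines, a change of sign.

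**Figure D1:**
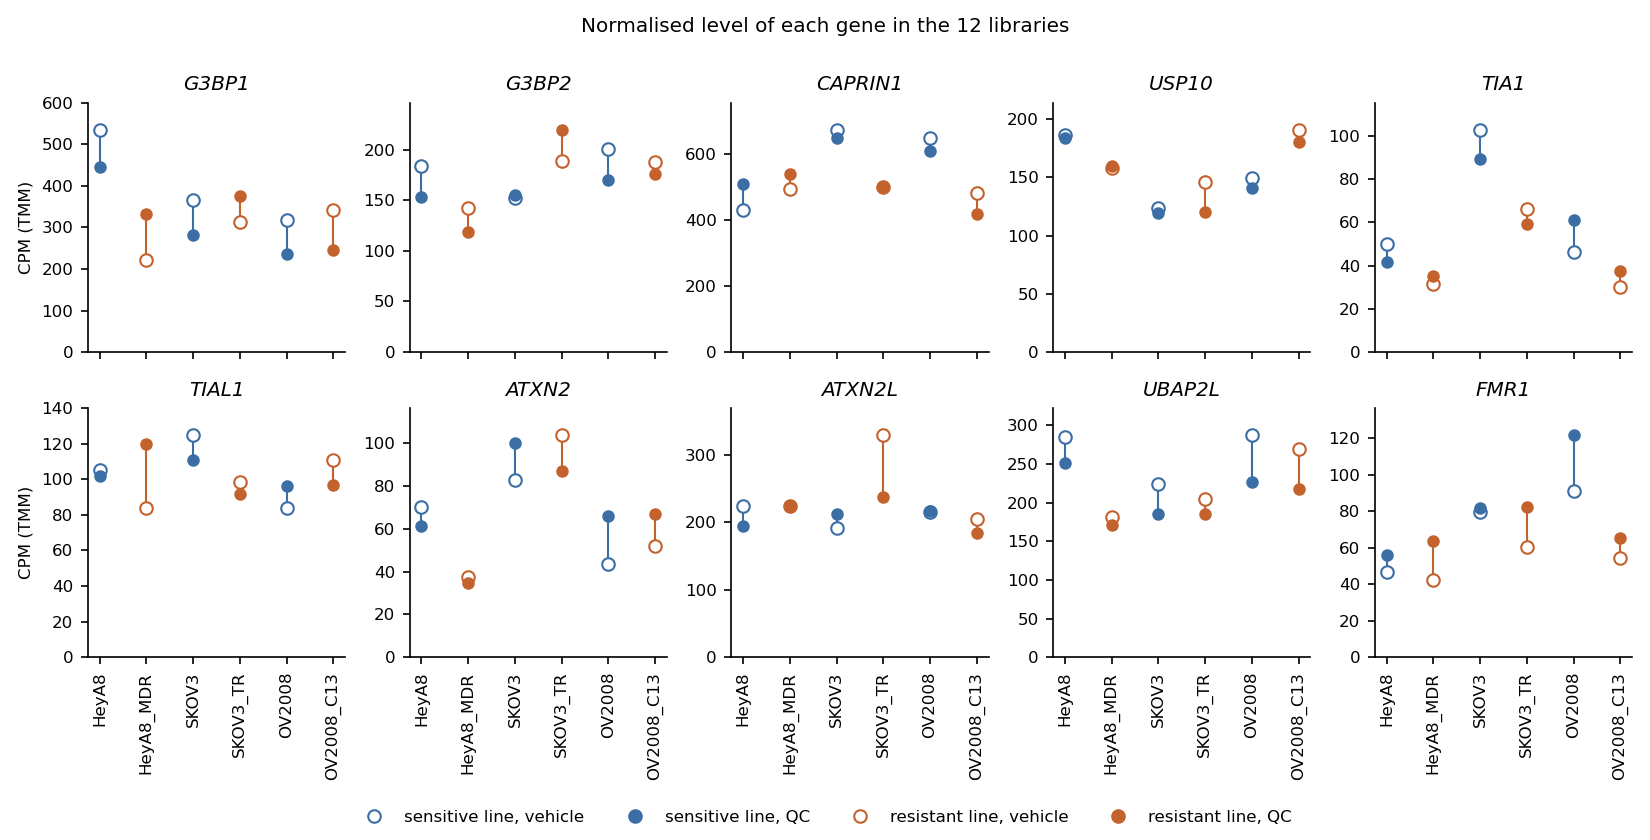
Normalised level of each of the 10 genes in the 12 libraries, in CPM scaled by TMM (vertical axes from 0) for each line (horizontal axis); open circles are vehicle, filled circles QC, blue sensitive and orange resistant lines. G3BP1 went from 536 to 446 CPM in HeyA8 and from 221 to 332 CPM in HeyA8_MDR, UBAP2L was lower with QC in all 6 lines and FMR1 higher in all 6.

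Because the libraries are bulk and scaled to their own reads, a smaller number of cells with a transcript and less of it per cell cannot be told apart. For each of the 10 members the range between lines in vehicle exceeded the largest QC change in any line. The range spans all lines whereas a QC change lies within a single line. The share of all genes with this property was not computed, so it cannot be called particular to the members. For G3BP1 the vehicle range was 2.43-fold, from HeyA8_MDR to HeyA8, against a largest QC change of 0.59 on the log2 scale. Of the 60 member and line combinations, 40 changed by less than 1.2-fold in either direction and 11 by at least 1.3-fold. Without HeyA8 the fitted log2 changes of the 7 members other than G3BP1, UBAP2L and FMR1 lay between -0.10 for USP10 and 0.17 for ATXN2, and without both HeyA8 lines between -0.14 for USP10 and 0.23 for ATXN2, with adjusted p-values of 0.684 or more (edgeR). The median log2 change over the 10 members was between -0.19 in HeyA8 and 0.07 in HeyA8_MDR.

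G3BP2, the paralogue of G3BP1, had smaller changes and another pattern. Its ratio of QC to vehicle was 0.831 in HeyA8, 0.837 in HeyA8_MDR, 1.02 in SKOV3, 1.17 in SKOV3_TR, 0.846 in OV2008 and 0.936 in OV2008_C13. It went up with G3BP1 in SKOV3_TR but down in HeyA8_MDR, where G3BP1 had its largest upward change. The fitted change over 6 lines was -0.10 ± 0.112 on the log2 scale (adjusted p = 0.707, edgeR).

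The share of G3BP1 in the reads of the pair, which does not depend on how libraries are scaled, shows the same contrast. In HeyA8_MDR G3BP1 held 60.8% of the reads of G3BP1 and G3BP2 in vehicle (95% Wilson interval 59.6 to 61.9) and 73.6% after QC (72.6 to 74.6), a level close to the 74.4% of HeyA8 in both treatments. The share went from 70.7% to 64.5% in SKOV3, from 61.2% to 58.2% in OV2008 and from 64.6% to 58.2% in OV2008_C13. In SKOV3_TR it was 62.4% in vehicle and 63.0% after QC, with intervals that overlapped, so both genes moved alike there. The direction of the share therefore differed between lines, and the sensitive and resistant lines were not separated by it.

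**Figure D2:**
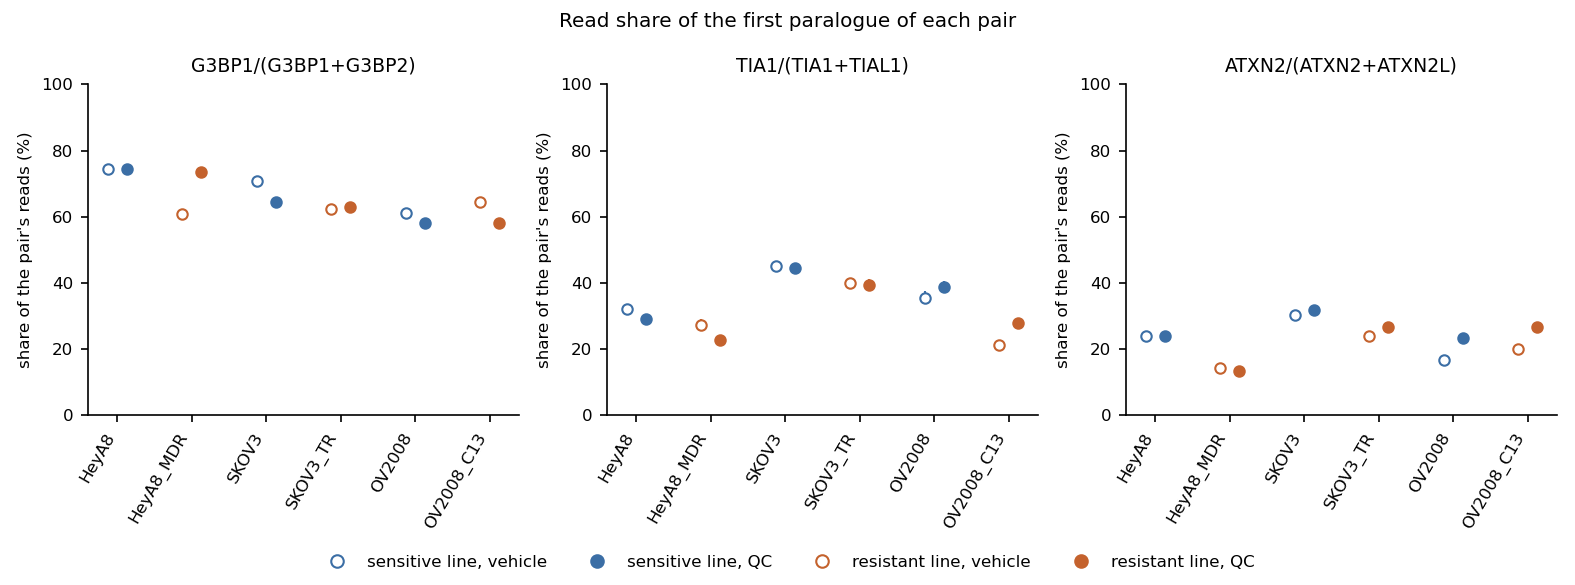
Share of the reads of each paralogue pair that fell on the first gene, in percent (vertical axes, 0 to 100), by line; open circles are vehicle and filled circles QC, and bars, mostly hidden by the symbols, are 95% Wilson intervals for counting error. The G3BP1 share went from 60.8% to 73.6% in HeyA8_MDR, and the ATXN2 share from 16.8% to 23.3% in OV2008 and from 20.1% to 26.7% in OV2008_C13.

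CAPRIN1 and USP10, which bind G3BP with opposite effects on condensation, showed no change beyond the spread between lines. CAPRIN1 was between 430 and 675 CPM in vehicle and between 419 and 649 CPM after QC, and its ratio ran from 0.867 in OV2008_C13 to 1.19 in HeyA8. Its fitted change was 0.003 ± 0.111 (log2; adjusted p = 0.994, edgeR), and that sign turned under library-size scaling. USP10 was between 124 and 191 CPM in vehicle and between 119 and 184 CPM after QC. Its ratio was between 0.944 and 1.01 in 5 lines and 0.82 in SKOV3_TR, and the fitted change was -0.08 ± 0.103 (log2; adjusted p = 0.737, edgeR), positive when scaled to RPLP0.

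TIA1 and TIAL1 (TIAR) are RNA-binding proteins with a prion-like domain that can seed granules and repress translation. TIA1 was at 49.9 CPM in HeyA8, 31.5 in HeyA8_MDR, 103 in SKOV3, 66.0 in SKOV3_TR, 46.3 in OV2008 and 30 in OV2008_C13 in vehicle. After QC it was at 41.8, 35.2, 89.5, 59.3, 61.3 and 37.5 CPM in the same order, so it was higher in both OV2008 lines and in HeyA8_MDR and lower in the other lines. The fitted change was 0.04 ± 0.127 (log2; adjusted p = 0.903, edgeR), with a sign that turned when OV2008 or OV2008_C13 was left out. TIAL1 was between 84.1 and 125 CPM in vehicle and between 91.7 and 120 CPM after QC, and HeyA8_MDR, with a ratio of 1.42 (1.33 to 1.52), had the largest change of any line. Its fitted change was 0.03 ± 0.122 (log2; adjusted p = 0.936, edgeR), and it was -0.08 without HeyA8_MDR.

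ATXN2 and ATXN2L are paralogous RNA-binding proteins of the ataxin family found in granules. ATXN2 had ratios of 1.51 (1.39 to 1.65) in OV2008, 1.29 in OV2008_C13 and 1.21 in SKOV3, against 0.871 in HeyA8, 0.934 in HeyA8_MDR and 0.835 in SKOV3_TR. It moved opposite to G3BP1 in 5 of 6 lines, HeyA8 being the exception. Its fitted change was 0.11 ± 0.136 (log2; adjusted p = 0.735, edgeR). ATXN2L had its largest change in SKOV3_TR, from 330 to 238 CPM, and ratios between 0.866 and 1.11 in the other lines (fitted log2 change -0.12 ± 0.115, adjusted p = 0.675, edgeR; positive when scaled to RPLP0). SKOV3_TR vehicle was the highest ATXN2L library of the 12, and the other 11 lay between 184 and 238 CPM. The exons of ATXN2L share 852 bases with long noncoding RNAs on the other strand, and the strand setting of the counting is not given in the sources used here.

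UBAP2L, which binds G3BP and takes part in the first steps of granule formation, was lower with QC in every line. In vehicle it was at 285 CPM in HeyA8, 181 in HeyA8_MDR, 224 in SKOV3, 205 in SKOV3_TR, 288 in OV2008 and 270 in OV2008_C13. After QC it was at 251, 171, 185, 185, 227 and 218 CPM in the same order, and the vehicle and QC ranges overlapped. The ratios ran from 0.788 in OV2008 to 0.947 in HeyA8_MDR. The fitted change was -0.22 ± 0.104 (log2; adjusted p = 0.332, edgeR, from an unadjusted p of 0.0513), so it did not pass the test. It was lower in 6 of 6 lines under TMM, library-size and DESeq2 scaling, but in 3 of 6 when scaled to RPLP0, which itself changed by -0.18 ± 0.129 (log2; adjusted p = 0.521, edgeR). The fitted change was -0.23 without HeyA8 (adjusted p = 0.472) and -0.28 without both HeyA8 lines (adjusted p = 0.538, edgeR).

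FMR1, which encodes the translational repressor FMRP, was higher with QC in every line. In vehicle it was at 46.5 CPM in HeyA8, 42.2 in HeyA8_MDR, 79.6 in SKOV3, 60.2 in SKOV3_TR, 91.4 in OV2008 and 54.5 in OV2008_C13. After QC it was at 55.9, 63.9, 82.0, 82.3, 122 and 65.5 CPM in the same order, and the vehicle and QC ranges overlapped. The ratio was highest in HeyA8_MDR at 1.51 (1.38 to 1.66) and lowest in SKOV3 at 1.03 (0.965 to 1.1), an interval that includes 1. The fitted change was 0.34 ± 0.112 (log2; adjusted p = 0.198, edgeR, from an unadjusted p of 0.0105), and FMR1 was higher in 6 of 6 lines under each of the 4 scalings. It was 0.35 without HeyA8 (adjusted p = 0.313) and 0.28 without both HeyA8 lines (adjusted p = 0.556, edgeR).

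**Figure D3:**
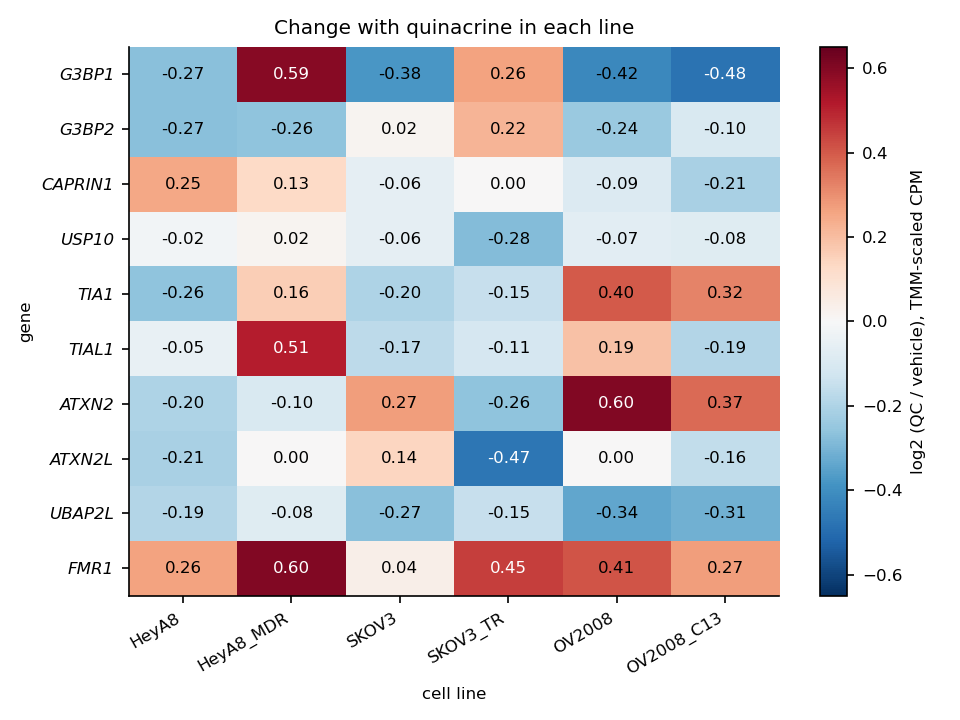
Log2 ratio of QC to vehicle for each gene (rows) in each line (columns), from TMM-scaled CPM; red is higher and blue lower with QC. The FMR1 row is positive in all 6 lines and the UBAP2L row negative in all 6, while the G3BP1 row runs from -0.48 in OV2008_C13 to 0.59 in HeyA8_MDR.

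Over the 6 lines, 1 of the 10 members (FMR1) had an unadjusted p under 0.05, where 15.2% of the 18720 genes tested did (2840 genes), so the members' share of 10% was not above the background. After adjustment 0 members and 0 of all genes (0%) passed in edgeR. DESeq2 on the same model called 518 genes after adjustment and 0 members, with FMR1 at an adjusted p of 0.075. In the sensitive lines 0 members had an unadjusted p under 0.05, against 6.59% of all genes. In the resistant lines FMR1 did, at 0.44 ± 0.171 (log2; adjusted p = 0.816, edgeR), against 6.03% of all genes. For the difference between sensitive and resistant lines 0 members did, against 1.16% of all genes, and in none of these comparisons did any gene pass after adjustment in edgeR. Without both HeyA8 lines FMR1 no longer had an unadjusted p under 0.05 over the lines left and UBAP2L did, 1 of 10 members against 9.14% of all genes. DESeq2 called 31 genes in the sensitive lines, 0 in the resistant lines and 1 for the difference. FMR1 and UBAP2L were 2 members that moved one way in all 6 lines, a pattern held by 8.73% of all genes.

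**Figure D4:**
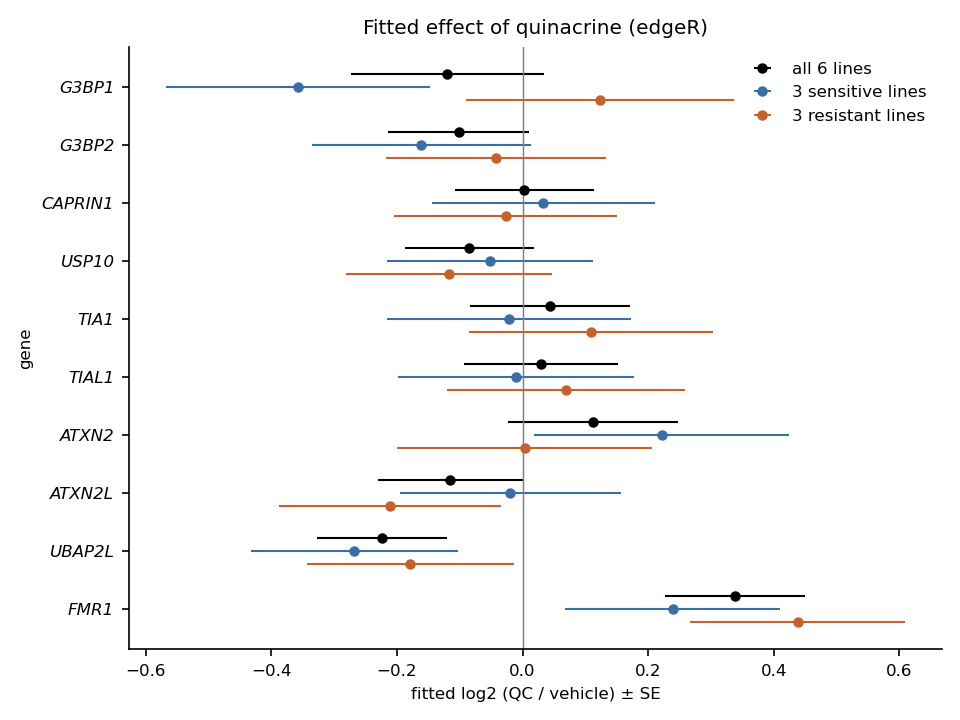
Fitted log2 change with QC ± SE (horizontal axis) for each gene over all 6 lines (black), the 3 sensitive lines (blue) and the 3 resistant lines (orange), from the edgeR fits. FMR1 lies at 0.34 and UBAP2L at -0.22 over 6 lines, and for G3BP1 the sensitive value of -0.36 and the resistant value of 0.12 lie on either side of 0.

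The partners were then set beside G3BP1 line by line. No partner went the same way as G3BP1 in all 6 lines (0 of 9), a pattern held by 1.2% of the other genes tested. Under TMM, USP10 shared the direction in 5 lines, G3BP2, CAPRIN1, TIAL1 and UBAP2L in 4, TIA1 and ATXN2L in 3, FMR1 in 2 and ATXN2 in 1. UBAP2L and FMR1 had fixed directions there, so their counts repeat the 4 lines in which G3BP1 was lower and the 2 in which it was higher. The USP10 log2 changes in HeyA8, HeyA8_MDR, SKOV3 and OV2008 were between -0.07 and 0.02, with counting intervals that reached a ratio of 1. Its count was 3 with library size and 1 with RPLP0, and that of CAPRIN1 was 3 and 2.

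Pearson's r of the log2 changes with those of G3BP1 was computed over the 6 lines as a description, since the points come from 3 isogenic families and share the scaling of each library pair. Under TMM it was 0.92 for UBAP2L (Spearman's rho 0.94), 0.76 for FMR1 (0.54), 0.64 for TIAL1 (0.6), 0.48 for CAPRIN1 (0.83) and 0.11 for G3BP2 (-0.14). It was -0.11 for USP10 (rho 0.43), -0.15 for TIA1 (-0.43), -0.27 for ATXN2L (-0.31) and -0.69 for ATXN2 (-0.77). Most of these values turned on a single line or on the scaling, as given next. Over all genes tested the median was -0.05, and 90% of genes lay between -0.78 and 0.78; 0.8% of genes had an r at least that of UBAP2L and 5.8% at least that of FMR1. Over the 45 pairs among the 10 members the median r was 0.06, with 23 pairs above 0.

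Under TMM scaling the UBAP2L change was smallest in HeyA8_MDR and SKOV3_TR, at -0.08 and -0.15, and largest in OV2008 and OV2008_C13, at -0.34 and -0.31. Leaving out any line kept this r between 0.85 and 0.98, and it was 0.95 without both HeyA8 lines. It was 0.92 with DESeq2 size factors but 0.02 with library size alone and -0.43 when scaled to RPLP0. RPLP0 itself had an r of 0.88 with G3BP1 and went the same way in all 6 lines. The r of FMR1 went from 0.52 without HeyA8_MDR to 0.89 without OV2008, and was 0.39 with library size and 0.1 with RPLP0. The r of TIAL1 became -0.11 without HeyA8_MDR. For G3BP2 it ran from -0.45 without SKOV3_TR to 0.72 without HeyA8_MDR and was 0.85 without both HeyA8 lines. For CAPRIN1 it ran from 0.32 without OV2008_C13 to 0.91 without HeyA8, and was -0.24 with library size and -0.69 with RPLP0. For USP10 it ran from -0.88 without HeyA8_MDR to 0.9 without SKOV3_TR and was -0.98 without both HeyA8 lines. Leaving out 1 line gave between -0.81 and 0.14 for ATXN2L and between -0.5 and 0.08 for TIA1, so the sign of r for G3BP2, USP10, ATXN2L and TIA1 depended on which line was left out. Leaving out a whole family moved some values further. Without both OV2008 lines r was 0.87 for TIA1 and 0.08 for CAPRIN1. Without both SKOV3 lines it was 0.48 for ATXN2L, 0.9 for USP10 and -0.48 for G3BP2. Leaving out any family kept UBAP2L between 0.91 and 0.95 and ATXN2 between -0.93 and -0.5. ATXN2 kept a negative r under the 4 scalings, between -0.7 and -0.35, and without any single line, between -0.86 and -0.61. The range of all genes given above for TMM became -0.83 to 0.65 with library size and -0.8 to 0.49 with RPLP0. An r at least that of ATXN2 was held by 90.3% of genes under TMM, 86.3% with library size and 56.6% with RPLP0. With RPLP0 its r was thus near the middle of all genes. For UBAP2L these shares were 0.8%, 32.2% and 65.1%.

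**Figure D5:**
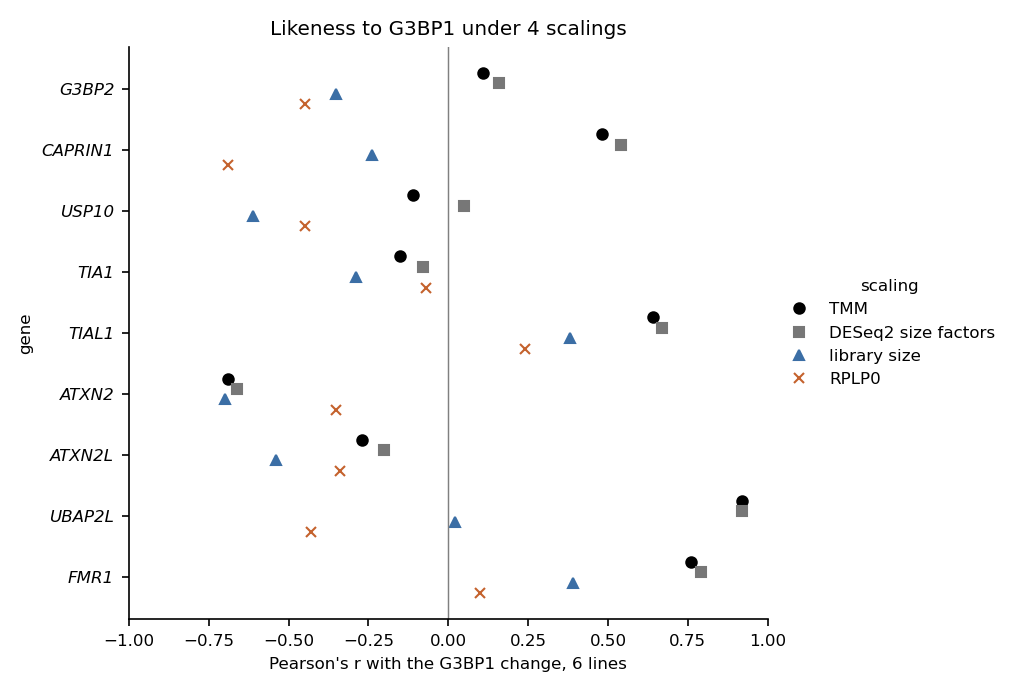
Pearson's r between the log2 QC change of G3BP1 and that of each partner over the 6 lines (horizontal axis) under TMM (circles), DESeq2 size factors (squares), library size (triangles) and RPLP0 (crosses). UBAP2L moves from 0.92 under TMM to 0.02 under library size, while ATXN2 stays below 0 and TIAL1 and FMR1 above 0 under all 4.

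Among the 8275 genes with at least 100 counts in every library, those whose changes were most like G3BP1 were EXOC6 (r = 0.995), EIF4H (0.993), BTBD1 (0.99), SKP1 (0.99) and SERPINB6 (0.987). EIF4H, a cofactor of the eIF4A helicase, went the same way as G3BP1 in 6 of 6 lines, with log2 changes between -0.08 and 0.25. EXOC6, an exocyst subunit, was higher in all 6 lines and shared the direction in 2. SOGA1 (r = -0.976), ZNF875 (-0.97) and CLEC16A (-0.969) were the least alike. These are the extremes of a large number of comparisons over 6 points.

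In vehicle, the resistant lines were compared with their parents. TIA1 was lower in each resistant partner by nearly the same factor, 0.632 in HeyA8_MDR, 0.64 in SKOV3_TR and 0.647 in OV2008_C13. The fitted difference was -0.64 ± 0.27 (log2; adjusted p = 0.975, edgeR, from an unadjusted p of 0.0589), which did not pass the test. The unadjusted p was 0.0434 with DESeq2 (adjusted p = 0.707), and scaled to RPLP0 the difference was -1.06 with an unadjusted p of 0.0133 (adjusted p = 0.553, edgeR). All genes with an unadjusted p under 0.05 also rose in number, from 606 to 1058 with DESeq2 and 1408 with RPLP0. Leaving out 1 family gave TIA1 differences between -0.633 and -0.617, with unadjusted p between 0.159 and 0.164 (edgeR). After QC TIA1 was again lower in each partner, at 0.844, 0.663 and 0.612 of the parent. In vehicle UBAP2L was also lower in each partner, at 0.634, 0.912 and 0.939 of the parent in the same order. FMR1 was too, at 0.907, 0.756 and 0.596. The share of all genes with the same direction in the 3 families was not computed, so this pattern cannot be called particular to TIA1. G3BP1 in HeyA8_MDR was at 0.412 of HeyA8, but at 0.853 in SKOV3_TR and 1.08 in OV2008_C13 of their parents (fitted -0.45 ± 0.35, adjusted p = 0.975, edgeR). That value was -0.06 without the HeyA8 family, -0.72 without the OV2008 family and -0.88 scaled to RPLP0. The other members had adjusted p-values of 0.975 or more, and 0 members had an unadjusted p under 0.05, where 3.77% of the 16091 genes tested in vehicle did. No gene passed after adjustment in edgeR, and 41 did in DESeq2, neither TIA1 nor G3BP1 among them.

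The wider machinery was followed through 4 lists. Of 48 other stress granule proteins, 47 were tested; 4 were higher and 6 lower with QC at an unadjusted p under 0.05, which is 21.3% against 15.2% of all genes, and the median log2 change was -0.01. Without HeyA8 the count was 3 higher and 2 lower (10.6% against 12% of all genes), and without both HeyA8 lines 3 and 3 (12.8% against 9.14%). PABPC4, a cytoplasmic poly(A)-binding protein, was lower in all 6 lines at -0.52 ± 0.122 (adjusted p = 0.146, edgeR). STAU2, a double-stranded RNA-binding protein of transport granules, was higher in all 6 at 0.51 ± 0.15 (adjusted p = 0.176, edgeR), as was RC3H2, a roquin family RNA-binding protein, at 0.39 ± 0.124 (adjusted p = 0.192, edgeR). Without both HeyA8 lines the fitted log2 changes were -0.48 for PABPC4, 0.319 for STAU2 and 0.4 for RC3H2, with adjusted p-values of 0.507 or more (edgeR).

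Processing bodies, the related assemblies of mRNA decay factors, had 2 of 31 members higher and 1 lower at that threshold (9.68%), with a median log2 change of 0.05. AGO1, an Argonaute protein of microRNA silencing, was lower in all 6 lines at -0.69 ± 0.146 (adjusted p = 0.141, edgeR). LSM3 and the exonuclease XRN1 were at 0.47 and 0.43, each higher in 5 lines, with adjusted p-values of 0.228 and 0.253 (edgeR). Of 17 eIF2alpha kinases, phosphatases and initiation factors, 2 were higher and 1 lower (17.6%), with a median of 0.06. PPP1R15A, the stress-induced subunit that directs dephosphorylation of eIF2alpha, was at 0.64 ± 0.203 and higher in 5 lines, with SKOV3_TR at -0.41 (adjusted p = 0.194, edgeR). EIF2B2, a subunit of the exchange factor for eIF2, was at 0.38 and EIF4EBP1, an inhibitor of cap-dependent initiation, at -0.46 (adjusted p = 0.197 and 0.22, edgeR). Of 20 genes of granule clearance and regulation, 0 were higher and 2 lower (10%), with a median of -0.03: UBQLN2 was at -0.41 and HDAC6, a deacetylase found in granules, at -0.31 (adjusted p = 0.252 and 0.272, edgeR), while PARP12 was at -0.24 with an unadjusted p of 0.0871. Without both HeyA8 lines 1 processing body gene was higher and 1 lower, and 0 genes of the eIF2alpha and clearance lists passed that threshold. In that fit the log2 changes were -0.485 for AGO1, 0.305 for LSM3 and 0.498 for XRN1. They were 0.561 for PPP1R15A, 0.245 for EIF2B2 and -0.359 for EIF4EBP1. Among the clearance genes they were -0.16 for UBQLN2, -0.3 for HDAC6 and -0.246 for PARP12. After adjustment 0 genes of the 4 lists passed in edgeR, and 0 of all genes.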

How the data were processed

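RNA-seq libraries from 6 cell lines, each treated with vehicle or QC, were analysed from raw counts per gene, which the authors deposited without normalization. The paper names TopHat, hg19 and HTSeq, whereas the submitters' processing notes name STAR 2.7.3a, HTSeq 0.6.1p1 and GRCh38.p13; the annotation and strand setting are not given in the sources used here. Coordinates of genes are those of GENCODE on GRCh37. Symbols were matched by Ensembl identifier without its version, for 58620 of the 60669 identifiers.

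Counts were fitted in R 4.3.3 with edgeR 4.0.16 (filterByExpr with a minimum count of 10 and a minimum total of 15, TMM scaling, quasi-likelihood test, two-sided, Benjamini-Hochberg adjustment). The models had a term for each cell line and a QC effect over 6 lines, or separate QC effects for sensitive and resistant lines, and 18720 genes were tested. The vehicle fit had a term for each isogenic family and 16091 genes. The cell line term is the pairing of the design: both libraries of a line come from the same cells, and their deviations from the group means correlated between 0.893 and 0.929. Values per line are ratios of CPM with a prior count of 2. Intervals cover counting error only. The fits were also run on simulated data, with changes larger than any seen in the members and equal in every line. That run therefore does not describe the power for changes as small as theirs.

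The 10 members were all named. From each of the 4 lists, which were written from general knowledge, the 3 genes with the smallest p over 6 lines were named, and likewise the 5 genes most and the 3 least like G3BP1. Members and lists were chosen with earlier results of these data known. Alternatives were DESeq2 1.42.0, its size factors, library size or RPLP0 as the scale, no filter or at least 10 counts in every library, no cell line term, the isogenic family as the block, the libraries of 1 group alone, a prior count of 0.5 and leaving out each line. Leaving out both HeyA8 lines, and the list counts without HeyA8, were chosen after seeing the data. Plots were drawn with matplotlib 3.10.9.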

Additional observations from a re-analysis of the deposited data

Results flagged for a closer look

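In 4 members the QC change went one way in both lines of one isogenic family and the opposite way in both lines of another. Each of these differences rests on 2 lines against 2, was picked out for its pattern and was not tested. The share of all genes with this pattern was not computed, so the count cannot be called particular to the members. Some directions rest on ratios whose 95% counting interval includes 1. These are G3BP2 in SKOV3 (0.971 to 1.07), CAPRIN1 in SKOV3_TR (0.974 to 1.02) and ATXN2 in HeyA8_MDR (0.836 to 1.04). G3BP2 was lower with QC in HeyA8 and HeyA8_MDR (log2 changes -0.27 and -0.26) and higher in SKOV3 and SKOV3_TR (0.02 and 0.22), a mean difference of -0.39. It was also lower in OV2008 and OV2008_C13 (-0.24 and -0.10), which set the SKOV3 lines 0.29 above them. CAPRIN1 was higher in the HeyA8 lines (0.25 and 0.13), 0.21 above the SKOV3 lines (-0.06 and 0.00, the second just below 0) and 0.33 above the OV2008 lines (-0.09 and -0.21). TIA1 was lower in the SKOV3 lines (-0.20 and -0.15) and higher in the OV2008 lines (0.40 and 0.32), a mean difference of -0.54. ATXN2 was lower in the HeyA8 lines (-0.20 and -0.10) and higher in the OV2008 lines (0.60 and 0.37), a mean difference of -0.63. These values are under TMM scaling, and those of the HeyA8 lines use the QC library that stood apart. ATXN2 kept the opposition under library size, DESeq2 size factors and RPLP0. CAPRIN1 was at -0.01 in HeyA8_MDR with library size, and at 0.38 and 0.27 in OV2008 and OV2008_C13 scaled to RPLP0. G3BP2 was at 0.06 in OV2008_C13 with library size, and at 0.23 and 0.38 in OV2008 and OV2008_C13 scaled to RPLP0. TIA1 was at 0.08 in SKOV3 scaled to RPLP0.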

How the results depend on the processing

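Alternatives were run for all 10 members over 6 lines, for G3BP1, UBAP2L and FMR1 in sensitive and in resistant lines, for G3BP1 in the difference and for G3BP1 and TIA1 in vehicle. None of these had an adjusted p under 0.05, the lowest being 0.075 for FMR1 over 6 lines with DESeq2, and FMR1, ATXN2 and UBAP2L over 6 lines kept their direction throughout. Scaled to RPLP0, which moved the median of all genes to 0.183 over 6 lines, 0.289 in sensitive and 0.0807 in resistant lines, log2 changes over 6 lines turned positive for G3BP1 (0.0657), G3BP2 (0.0826), USP10 (0.0997) and ATXN2L (0.0696), as did UBAP2L in sensitive lines (0.00671). CAPRIN1 over 6 lines was -0.00355 without the cell line term, -0.00803 with library size and -0.099 without both HeyA8 lines. TIA1 was -1.7e-05 without the cell line term. Without both HeyA8 lines TIAL1 was -0.0807 and G3BP1 in resistant lines -0.118. Leaving out 1 line gave CAPRIN1 between -0.0458 and 0.0336, TIA1 between -0.0255 and 0.104, TIAL1 between -0.0801 and 0.0634, and G3BP1 in resistant lines between -0.128 and 0.412.

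Counts of all genes at an unadjusted p under 0.05 moved most without the cell line term, to 117 over 6 lines, 30 in sensitive lines, 23 in resistant lines and 6 for the difference, and to 104 without the family term in vehicle. Without both HeyA8 lines they were 1768, 653 and 398 over 6, sensitive and resistant lines. Scaled to RPLP0 they were 2191 in sensitive lines and 1408 in vehicle, and DESeq2 gave 1058 in vehicle. With no filter they were 1918 in sensitive lines and 501 for the difference, which was 120 with at least 10 counts in every library and 438 with the isogenic family as the block. Leaving out 1 line gave 808 (without HeyA8) to 2012 (without SKOV3) in sensitive lines, 416 (without HeyA8_MDR) to 1376 in resistant lines and 187 to 540 (without OV2008_C13) for the difference. After adjustment DESeq2 called 518 genes over 6 lines, 31 in sensitive lines, 1 for the difference and 41 in vehicle, no filter gave 791, 195, 35 and 5 over 6, sensitive, resistant lines and the difference, and leaving out 1 line gave 0 to 1 over 6 lines and 0 to 18 in sensitive lines. The cause of these shifts was not tested. Members had 588 or more counts in every library.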
